A study of Mus musculus with 8 samples.

Results

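The G1 cyclins, CDKs and CDK inhibitors form the switch that decides whether a cell leaves quiescence or stays in it. In G1, the D cyclins (Ccnd1, Ccnd2 and Ccnd3) bind and activate the kinases Cdk4 and Cdk6, which phosphorylate the pocket protein Rb1 and so release the E2F transcription factors that switch on S-phase genes. The Cip/Kip inhibitors Cdkn1a (p21), Cdkn1b (p27) and Cdkn1c (p57) and the INK4 inhibitor Cdkn2c (p18) restrain these kinases, and p57 and p27 are known for holding adult hematopoietic stem cells (HSCs) out of cycle. The 10 genes were chosen by symbol and not by a cutoff on their values, although earlier results of these data were known when the set was drawn up. All 10 were among the 15142 genes listed in the 3 expression tables and among the 11347 genes that passed the filter on low values (at least 1 FPKM in at least 2 libraries).

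RNA was measured in HSCs sorted from wild-type (WT) C57BL/6 mice of 8 to 12 weeks, in 8 libraries of 3 groups. PHZ BM HSC (PHZ BM, 3 libraries) and PHZ SP HSC (PHZ SP, 2 libraries) came from the bone marrow and the spleen of mice given 60 mg/kg phenylhydrazine (PHZ), which destroys red blood cells, in 2 injections, and were sorted 3 days after the last. Control BM HSC (control BM, 3 libraries) came from the marrow of mice labelled as given PBS. No spleen library of mice without PHZ was analysed here, so tissue and treatment cannot be told apart where PHZ SP is set against control BM. Both marrow groups carry the name WBM in the headers of their value columns, although titles and cell type labels give HSCs. They were taken as sorted HSCs on the strength of those labels, and every marrow value below rests on that reading. The HSC gate was defined by surface proteins (lineage-negative, Sca-1+, c-kit+, CD150+ and CD48-negative or low). The labels do not say whether the libraries of a group came from separate mice. The study describes the replicate numbers it prints with these experiments as separate animals, but prints none for the RNA-seq, so the p-values measure the spread between libraries, which may be in part technical.

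The libraries held 8216626 to 13201359 reads, of which 43.3% to 48.6% were of Rn45s, a ribosomal RNA precursor. Values are FPKM, which count fragments per kilobase of a gene after allowing for depth, set on 1 scale across the tables, and each of the 10 genes had at least 10 reads in all 8 libraries. All 8 HSC markers examined were above 0 in every library, and 0 of them passed the test by limma in any comparison (1 to 4 were below 0.05 without adjustment, and 1 passed with limma voom, in PHZ SP against control BM). Over all genes tested, 0.758% to 2.74% passed by limma and 13.5% to 16.6% were below 0.05 without adjustment. Of 8 erythroid markers tested, 6 were higher in PHZ SP than in control BM and 2 higher than in PHZ BM, and their summed level was 935 to 1144 FPKM in PHZ SP against 126 to 281 FPKM in control BM and 178 to 335 FPKM in PHZ BM. The 7 neutrophil markers summed to 1299 to 1659 FPKM in PHZ SP, 318 to 655 FPKM in control BM and 335 to 842 FPKM in PHZ BM, with only S100a8 passing the test by limma, in both comparisons with PHZ SP. In control BM, 1 erythroid marker (Ermap) and 1 neutrophil marker (Mpo) were at 0 in a library, and none of these markers was at 0 in a library of the other two groups. Of 7 T and NK cell markers 2 were tested, and Klrb1c, an NK cell receptor gene, was higher in PHZ SP in both comparisons, while Nkg7 had log2 fold changes of -0.26 against control BM and -0.36 against PHZ BM and did not pass. Gzma and Ncr1 of that list were at 0 in a library of each of the 3 groups, and Cd3d, Cd3e and Cd3g in a library of control BM alone. Of 5 megakaryocyte markers 4 were tested, and Ppbp and Pf4 were lower in PHZ BM than in control BM by limma, while Itga2b (log2 fold change 0.69) and Gp9 (-0.20) did not pass, and none of the list passed by limma voom. That list summed to 80.7 to 100.1 FPKM in PHZ BM, 113 to 131 FPKM in control BM and 85.35 to 138 FPKM in PHZ SP. No B cell or macrophage marker passed in any comparison. The 6 macrophage markers summed to 36.1 and 61.1 FPKM in PHZ SP and to 4.22 to 20.6 FPKM in the marrow libraries, but Cd68 alone made up 34.4 and 57.6 FPKM of the spleen sums, and C1qb had log2 fold changes of -1.31 and -1.35 in PHZ SP against control BM and PHZ BM. In bulk RNA, fewer cells of a type and less RNA per cell cannot be told apart.

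The starts of Cdkn1b, Cdkn1a and Cdkn2c are shown here, Cdkn1b because its marrow groups did not overlap, Cdkn1a because its level differed most between libraries (the highest was 26.9 times the lowest), and Cdkn2c because it held the E2F match among the 9 windows. Of the 10 genes, 6 had a promoter in the RefSeq table used (GRCm38.p6), with 9 start sites. Each run is the 250 bases before a start site, on the strand of the gene, with matches to the motifs searched in capitals. Cdkn1b lies at chr6:134920401-134925525, and the window is chr6:134920151-134920400 on the plus strand. Cdkn1a lies at chr17:29090979-29100722 on the plus strand, with windows chr17:29090729-29090978 and chr17:29093519-29093768. Cdkn2c lies at chr4:109660876-109666756 on the minus strand, and the window of its upstream start is chr4:109666757-109667006.
Cdkn1b: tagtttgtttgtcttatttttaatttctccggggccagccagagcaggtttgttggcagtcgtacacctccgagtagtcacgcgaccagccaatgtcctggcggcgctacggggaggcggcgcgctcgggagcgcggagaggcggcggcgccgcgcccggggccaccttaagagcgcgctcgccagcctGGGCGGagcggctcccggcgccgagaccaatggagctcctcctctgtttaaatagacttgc
Cdkn1a, first start: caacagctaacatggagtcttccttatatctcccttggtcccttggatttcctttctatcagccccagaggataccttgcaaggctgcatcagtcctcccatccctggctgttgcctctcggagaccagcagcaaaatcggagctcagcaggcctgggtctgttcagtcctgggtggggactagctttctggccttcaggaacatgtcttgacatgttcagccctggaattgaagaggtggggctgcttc
Cdkn1a, second start: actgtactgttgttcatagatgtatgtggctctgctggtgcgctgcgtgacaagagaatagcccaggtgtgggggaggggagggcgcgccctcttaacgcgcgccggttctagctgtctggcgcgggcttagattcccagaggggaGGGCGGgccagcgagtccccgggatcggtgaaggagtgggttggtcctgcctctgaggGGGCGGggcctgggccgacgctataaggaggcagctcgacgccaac
Cdkn2c, upstream start: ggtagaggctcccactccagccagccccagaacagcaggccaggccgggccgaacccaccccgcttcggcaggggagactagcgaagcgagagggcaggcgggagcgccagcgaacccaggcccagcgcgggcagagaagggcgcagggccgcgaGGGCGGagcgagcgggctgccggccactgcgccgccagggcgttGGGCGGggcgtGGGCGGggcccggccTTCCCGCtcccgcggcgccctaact

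The motifs were searched on both strands, and no matches in the 9 windows overlapped. E2F was searched as TTCCCGC, as well as TTGGCGC, with TTCGCGC and finally TTGCCGC, while AP-1 was searched as TGACTCA, CRE as TGACGTCA, FOXO as TGTTTAC and the GC box as GGGCGG. A GC box stood in 6 of the 9 windows, against 32.7% of 32851 mouse promoter windows of the same length. It stood 61 bases before the start of Cdkn1b, and 104 and 46 bases before the second start of Cdkn1a, whose first start held none of the motifs. An E2F match stood in 1 of the 9 windows, 25 bases before the upstream start of Cdkn2c (7.89% of all windows), and a FOXO match in 1, at Ccnd3 (3.17%). AP-1 (4.46% of all windows) and CRE (1.55%) letters were in none of the 9. These matches are descriptions of letters and not of bound factors.

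Cdk4 was the most abundant of the 10 genes, with a median of 75.8 FPKM over the 8 libraries, and its mean was above that of 96.8% of the genes tested. Ccnd2 (34.9 FPKM), Ccnd3 (26.3 FPKM) and Cdk6 (18.4 FPKM) followed. The others lay far lower, from 5.51 FPKM for Cdkn1b and 4.82 FPKM for Cdkn1c through 4.09 FPKM for Ccnd1, 3.50 FPKM for Cdkn2c and 1.47 FPKM for Cdkn1a to 1.42 FPKM for Rb1. Cdk4 exceeded Ccnd2, Ccnd3 exceeded Cdk6 and Cdk6 exceeded Cdkn1b in 8 of 8 libraries. Ccnd2 exceeded Ccnd3 in 6 of 8, and the exceptions were 2 libraries of PHZ BM. Among the low genes the order was not fixed, since Cdkn1c exceeded Ccnd1 in 4 of 8 libraries and Ccnd1 exceeded Cdkn2c in 4 of 8.

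**Figure D1:**
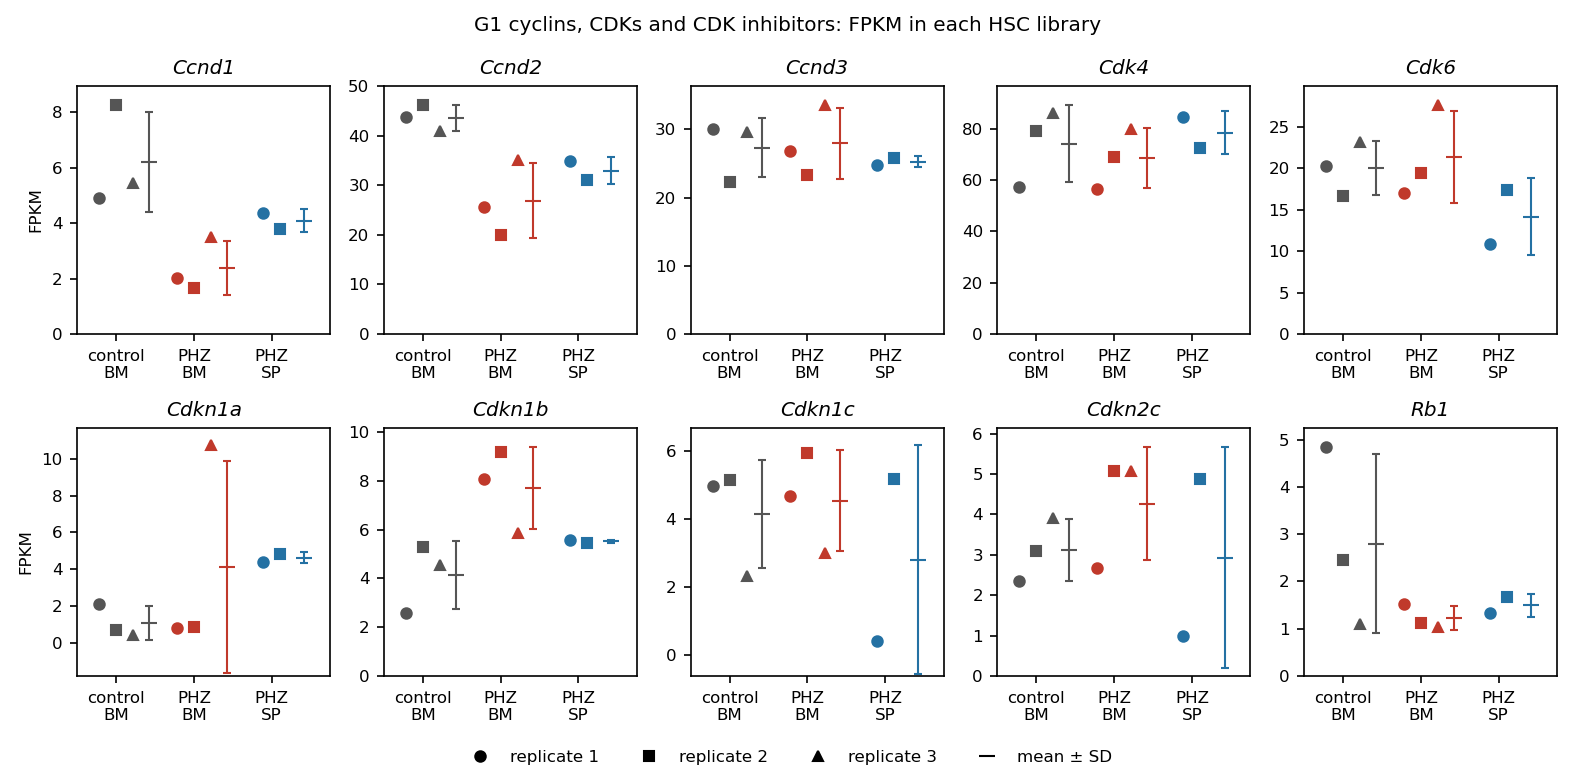
FPKM of each of the 10 genes in each library, with a panel and a vertical scale per gene, symbols for replicates and the mean ± SD beside each group. Ccnd1 and Ccnd2 were lower and Cdkn1b higher in all 3 PHZ BM libraries than in any control BM library, while Cdkn1a was at 10.8 FPKM in 1 PHZ BM library and below 1 FPKM in the other two.

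To ask whether G1 control genes moved in the marrow after PHZ, PHZ BM were compared with control BM. None of the 10 genes passed the threshold (limma on log2(FPKM + 1), adjusted p below 0.05), where 311 of all genes tested did (168 higher and 143 lower), or 2.74%. Without adjustment, 3 of the 10 were below 0.05 (Ccnd1 and Ccnd2 lower, Cdkn1b higher), against 16.6% of all genes, and the same 3 were the members whose groups did not overlap, against 23.9% of all genes. The count of members without overlap was thus close to the background of this comparison. The median log2 fold change over the 10 was 0.05, beside 0.01 over all genes tested, with 6 above 0 and 4 below. The 10 mix genes that drive G1 with genes that restrain it. Opposite moves of these can cancel in the median, here and in the other comparisons, so a median near 0 does not show that the genes stayed unchanged.

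Ccnd1, at chr7:144929931-144939831, was measured at 4.91, 8.27 and 5.45 FPKM in control BM and at 2.005, 1.67 and 3.50 FPKM in PHZ BM. Every PHZ BM library was below every control library. The mean was 0.385 times that of control BM, 2.39 ± 0.973 against 6.21 ± 1.80 FPKM (SD, n = 3 each), with a log2 fold change of -1.10 (SE 0.27, 95% interval -1.70 to -0.50, adjusted p = 0.0618). Over the 18 alternatives to this fit, the adjusted p ranged from 0.0422 to 0.248 and was below 0.05 in 3.

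Ccnd2, the D cyclin with the highest level in control HSCs, lies at chr6:127125162-127152188. It was measured at 43.7, 46.1 and 40.9 FPKM in control BM and at 25.6, 20.02 and 35.1 FPKM in PHZ BM, again without overlap. The mean was 0.617 times that of control BM, 26.9 ± 7.60 against 43.6 ± 2.58 FPKM (SD, n = 3 each), and the log2 fold change of -0.71 (SE 0.20, 95% interval -1.14 to -0.28, adjusted p = 0.0856) did not pass the test. Its adjusted p ranged from 0.0210 to 0.327 over the alternatives and was below 0.05 in 2.

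For both cyclins the third PHZ BM library was the highest of its group. Without it, Ccnd1 (log2 fold change -1.32, adjusted p = 0.0422) and Ccnd2 (-0.91, adjusted p = 0.0210) passed, so 2 of the 10 genes were called where 2.70% of all genes were. Leaving out the highest library of the lower group must widen the difference, so these calls are no separate support for a fall. That library also held the highest summed level of the 16 mitotic genes in its group (65.2 FPKM against 28.5 and 45.0 FPKM) and of the 16 S-phase genes (290 FPKM against 176 and 184 FPKM). Ccnd1 also passed when genes needed at least 10 reads in every library (adjusted p = 0.0486, with 3.26% of 10153 genes called) and when libraries were scaled by their reads outside Rn45s (adjusted p = 0.0492, 2.95% called). Ccnd2 also passed in a test of the recovered reads by limma voom (adjusted p = 0.0487, 2.28% called).

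Ccnd3, at chr17:47505051-47599689, ranged from 22.3 to 30.0 FPKM in control BM and from 23.4 to 33.6 FPKM in PHZ BM, and the groups overlapped. Its log2 fold change of 0.03 had a 95% interval of -0.38 to 0.44 (adjusted p = 0.957). The D cyclins were also read as shares of their own sum within a library, which do not depend on how tables were scaled. Ccnd2 made up 55.6%, 60.1% and 53.9% of summed D cyclin FPKM in the control BM libraries and 47.0%, 44.4% and 48.6% in those of PHZ BM. The share of Ccnd3 was 38.2%, 29.1% and 38.9% in control BM and 49.4%, 51.9% and 46.5% in PHZ BM. Ccnd1 took 6.25% to 10.8% in control BM and 3.68% to 4.85% in PHZ BM. None of these shares overlapped between the marrow groups, and the summed FPKM was 77.1 ± 1.36 in control BM and 57.2 ± 13.7 in PHZ BM (SD, n = 3 each). In PHZ SP, Ccnd2 took 54.4% and 51.2% and Ccnd3 took 38.7% and 42.5%, of a sum of 62.3 ± 2.29 FPKM (SD, n = 2). The order of Ccnd2 and Ccnd3 in PHZ BM depended on the unit. As shares of reads, which do not allow for gene length, the first PHZ BM library had 50.3% Ccnd2 and 47.0% Ccnd3, and the second 47.8% and 49.5%. The shares were described and not tested.

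**Figure D2:**
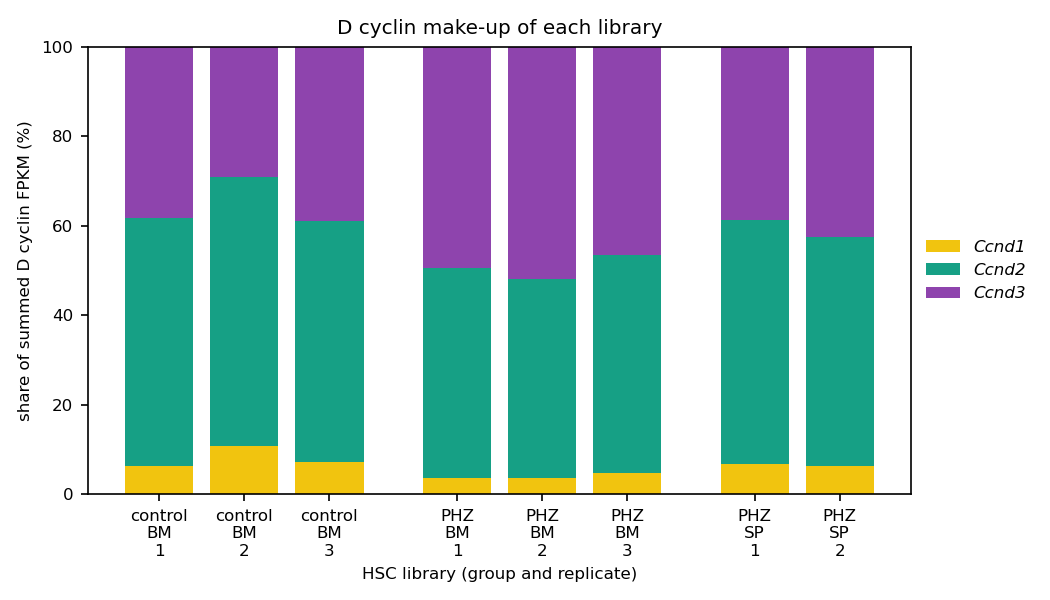
Share of Ccnd1, Ccnd2 and Ccnd3 in their summed FPKM (vertical axis, %) in each library (bars, by group and replicate). By FPKM, Ccnd3 was above Ccnd2 in the first and second PHZ BM libraries (by reads, in the second alone), and Ccnd2 was the largest share in the other libraries.

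The cyclin D kinases did not pass the test. Cdk4, at chr10:127063535-127067288, was measured at 57.3, 79.2 and 86.0 FPKM in control BM and at 56.4, 69.0 and 79.8 FPKM in PHZ BM. Cdk6, at chr5:3341004-3531008, was at 20.3, 16.7 and 23.1 FPKM in control BM and at 17.0, 19.4 and 27.7 FPKM in PHZ BM. Both overlapped between the groups, and the 95% intervals of the log2 fold change were -0.51 to 0.30 for Cdk4 and -0.45 to 0.59 for Cdk6. Cdk4 made up 78.4% ± 4.42 of the summed FPKM of the 2 kinases in control BM and 76.4% ± 1.92 in PHZ BM (SD, n = 3 each), and 84.6% ± 5.66 in PHZ SP (SD, n = 2). As shares of reads, with no allowance for gene length, the means were 50.3%, 47.1% and 60.7%, so by reads Cdk6 was ahead in PHZ BM.

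Among the inhibitors, Cdkn1b was at 2.56, 5.27 and 4.56 FPKM in control BM and at 8.07, 9.17 and 5.86 FPKM in PHZ BM. All 3 PHZ BM libraries were above the controls. The mean was 1.86 times that of control BM (7.70 ± 1.68 against 4.13 ± 1.41 FPKM, SD, n = 3 each), and the log2 fold change of 0.78 (SE 0.26, 95% interval 0.20 to 1.36) did not pass the test (adjusted p = 0.152, and 0.133 to 0.466 over the alternatives).

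Cdkn1a, an inhibitor induced by p53 and by stress, was at 2.11, 0.692 and 0.401 FPKM in control BM, from 14 to 56 reads. The PHZ BM libraries were at 0.772, 0.822 and 10.8 FPKM, and the third of these held 379 reads of the gene where the one with the fewest held 21. The mean and SD of that group (4.13 ± 5.77 FPKM) therefore rest on 1 library. The log2 fold change was 0.79 with an interval of -0.57 to 2.15 (adjusted p = 0.567), and without the third library it was -0.11 (adjusted p = 0.923). The same library had the highest summed neutrophil markers of its group, 842 FPKM against 335 and 353 FPKM, with S100a8 at 341 FPKM against 158 and 144 FPKM, and their part in the Cdkn1a value was not tested. Of 12 p53 target genes tested, 0 passed in any of the 3 comparisons by this fit or by limma voom, where 0.573% to 2.74% of all genes did. Without adjustment, 1 or 2 were below 0.05 in each, where 13.5% to 16.6% of all genes were. These counts are near the background and do not show whether the list moved. Its median log2 fold changes were 0.14 in PHZ BM against control BM, 0.20 in PHZ SP against control BM and -0.0075 in PHZ SP against PHZ BM. With at least 10 reads in every library, 1 p53 target gene passed in PHZ BM against control BM, where 3.26% of all genes did.

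Cdkn1c, at chr7:143458339-143461059, is highly expressed in quiescent HSCs. It was at 4.97, 5.15 and 2.33 FPKM in control BM and at 4.68, 5.95 and 3.00 FPKM in PHZ BM, with a log2 fold change of 0.12 and a wide interval of -0.91 to 1.16. Cdkn2c was at 2.36, 3.09 and 3.91 FPKM in control BM and at 2.66, 5.07 and 5.07 FPKM in PHZ BM (interval -0.50 to 1.17). Rb1, at chr14:73192858-73325951, was at 4.84, 2.45 and 1.11 FPKM in control BM and at 1.52, 1.13 and 1.04 FPKM in PHZ BM. Its mean was 0.440 times that of control BM, but the groups overlapped and the control libraries spread from 74 to 246 reads (log2 fold change -0.65, interval -1.42 to 0.11, adjusted p = 0.374).

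PHZ SP were compared with control BM next. None of the 10 genes passed by limma, where 0.758% of all genes did (71 higher and 15 lower). Only Cdkn1a was below 0.05 without adjustment, against 15.8% of all genes, and with limma voom on the recovered reads 0 of the 10 passed (0.652% of all genes) and 2 were below 0.05 without adjustment (16.2% of all genes). The groups did not overlap for 4 of the 10 genes (Cdkn1a and Cdkn1b higher, Ccnd1 and Ccnd2 lower), against 28.9% of all genes. The median log2 fold change over the 10 was -0.32, beside -0.0012 over all genes tested, with 7 of them below 0.

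Cdkn1a was at 4.41 and 4.84 FPKM in PHZ SP (134 and 137 reads), above the 3 control libraries. The mean was 4.34 times that of control BM (4.63 ± 0.308, n = 2, against 1.07 ± 0.913 FPKM, n = 3, SD), and the log2 fold change of 1.53 had an interval of 0.0096 to 3.05 and did not pass the test (adjusted p = 0.314, and 0.103 to 0.551 over the alternatives). The erythroid and neutrophil marker levels given above differ between the same groups, and their part in the Cdkn1a value was not tested. Cdkn1b was at 5.56 and 5.47 FPKM in the spleen, between the 2 marrow groups, with a log2 fold change against control BM of 0.38 (interval -0.26 to 1.03). Ccnd1 (4.39 and 3.80 FPKM) and Ccnd2 (34.8 and 31.1 FPKM) also lay between the means of the 2 marrow groups, with log2 fold changes against control BM of -0.48 (interval -1.15 to 0.19) and -0.39 (interval -0.87 to 0.09).

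Ccnd3 (24.7 and 25.8 FPKM), Cdk4 (84.5 and 72.5 FPKM) and Rb1 (1.33 and 1.66 FPKM) in PHZ SP were within the range of the control libraries. Cdk6 was at 10.9 and 17.4 FPKM, with 1 spleen library below all the others and a log2 fold change of -0.50 (interval -1.08 to 0.08, adjusted p = 0.389). Cdkn1c differed widely between the 2 spleen libraries, at 0.439 FPKM in the first and 5.18 FPKM in the second, or 10 and 110 reads. Cdkn2c did so too, at 0.999 and 4.87 FPKM, or 30 and 136 reads. Their log2 fold changes against control BM (-0.73 for Cdkn1c and -0.25 for Cdkn2c) became 0.32 and 0.53 without the first spleen library, so the sign of each rests on that library.

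Within the treated mice, PHZ SP were compared with PHZ BM. These comparisons share libraries with those above and are no independent support for them. None of the 10 genes passed by limma, where 0.978% of all genes did (69 higher and 42 lower), and none was below 0.05 without adjustment, against 13.5% of all genes. With limma voom on the recovered reads, 0 of the 10 passed (0.573% of all genes) and 1 was below 0.05 without adjustment (13.7% of all genes). The groups did not overlap for 2 of the 10 genes, Ccnd1 higher and Cdkn1b lower in the spleen, against 34.8% of all genes. Ccnd1 had a log2 fold change of 0.62 (interval -0.05 to 1.29, adjusted p = 0.409), and Cdkn1b of -0.40 (interval -1.04 to 0.25, adjusted p = 0.602). Cdk6 had the smallest p of the 10, at -0.57 (interval -1.15 to 0.01, adjusted p = 0.378). The intervals leave room for differences of over 2-fold on the FPKM + 1 scale for Cdkn1a (-0.78 to 2.26), Cdkn1c (-2.02 to 0.30), Cdkn2c (-1.52 to 0.35), Ccnd1 and Rb1 (-0.69 to 1.02), Cdk6 and Cdkn1b.

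**Figure D3:**
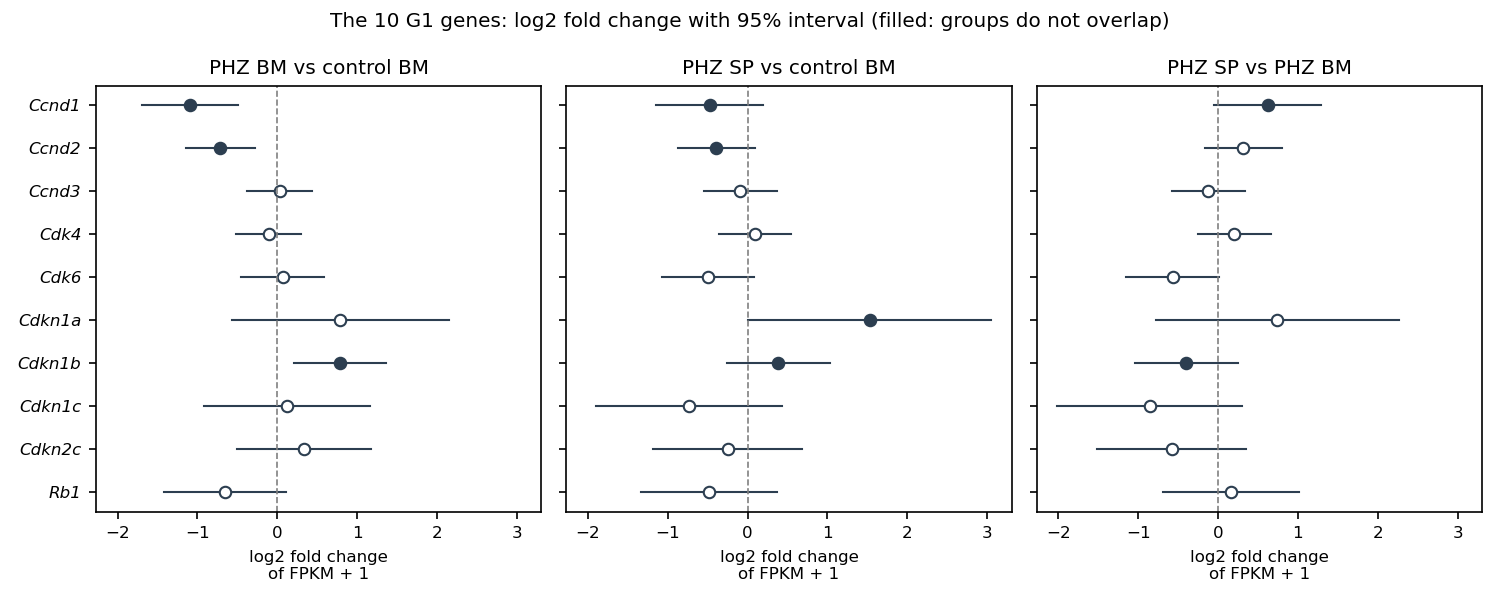
Log2 fold change of FPKM + 1 (horizontal axis) with its 95% interval for each of the 10 genes in the 3 comparisons, with filled points where the libraries of the 2 groups do not overlap. In PHZ BM against control BM the intervals of Ccnd1, Ccnd2 and Cdkn1b lie off 0, but the adjusted p-values of 0.0618, 0.0856 and 0.152 are above the threshold.

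To set the 10 genes beside the cell cycle genes downstream of them, 3 further lists were read from the same fit. Mitotic genes were lower in PHZ BM than in control BM for 11 of 16 tested, and 0 were higher. Over all genes tested, 2.74% passed in this comparison. The median log2 fold change was -1.75, beside 0.01 over all genes and 0.05 over the 10 G1 genes. The G1 median mixes activators and inhibitors, so it does not show that the G1 genes stayed unchanged. Top2a, which untangles DNA, was at 3.06 ± 0.246 FPKM in PHZ BM and 15.8 ± 5.37 FPKM in control BM (log2 fold change -2.003, adjusted p = 0.00298). The proliferation marker Mki67 (-1.82) and the cyclins Ccnb2 (-2.64) and Ccna2 (-2.16) fell as well. Of the S-phase genes that E2F regulates, 8 of 16 were lower and 0 higher, with a median of -1.20. These included Rrm2 and Rrm1, subunits of the enzyme that makes deoxynucleotides (-1.92 and -1.29), Cdt1 (-1.41), which licenses DNA replication, and Gmnn (-1.51), which holds Cdt1 back. Without the first or the second PHZ BM library the mitotic count was 7, and the S-phase count was 3 to 5 without either of these or without control library 2 or 3. Without the filter on low values, the S-phase count was 4, and with PHZ BM libraries 1 and 2 averaged the mitotic count was 7 and the S-phase count 3.

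In PHZ SP against control BM, 0 of 16 mitotic and 0 of 16 S-phase genes passed by limma or limma voom, where 0.758% and 0.652% of all genes did. Without adjustment, 1 and 2 were below 0.05 by limma (15.8% of all genes) and 3 and 3 by limma voom (16.2%). The medians were -0.33 and -0.07. These counts are near the background and do not show that the levels were equal. Against PHZ BM, where 0.978% of all genes passed, 4 mitotic genes (Ccna2 2.24, Plk1 1.85, Top2a 1.52 and Cdc20 1.72) and 3 S-phase genes (Rrm2 2.75, Gmnn 1.55 and Rrm1 1.10) were higher in the spleen. The medians there were 1.43 and 0.85. Leaving out PHZ BM library 1, PHZ BM library 2 or either spleen library left 0 mitotic genes and 0 or 1 S-phase genes past the threshold, and so did fitting without the filter on low values or averaging PHZ BM libraries 1 and 2. Without the trend and robust options the counts were 2 and 1, and with at least 10 reads in every library they were 7 and 3.

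Of the rest of the G1/S machinery, 23 genes were tested of 25. In PHZ BM against control BM 1 passed, where 2.74% of all genes did, and 12 were below 0.05 without adjustment, where 16.6% of all genes were. In PHZ SP against PHZ BM 1 passed (0.978% of all genes) and 9 were below 0.05 without adjustment (13.5% of all genes). Cks1b, which helps the SCF ligase to mark p27 for destruction, was at 90.7, 78.0 and 101 FPKM in control BM and at 20.6, 23.3 and 47.8 FPKM in PHZ BM, a fall by 1.62 on the log2 scale (adjusted p = 0.0117). It was the call of this list in PHZ BM against control BM, and it was lost without control library 3, PHZ BM library 1 or PHZ BM library 2 and with the latter 2 averaged. With at least 10 reads in every library, 2 genes of the list passed. The median of the list was -0.58, with 17 of 23 genes below 0. Ccne1, the E cyclin that activates Cdk2 late in G1, was at 5.88 and 5.05 FPKM in PHZ SP and at 1.18, 0.600 and 1.37 FPKM in PHZ BM, and it was higher by 1.67 on the log2 scale (adjusted p = 0.0464). Against control BM, where it was at 0.769, 0.623 and 2.05 FPKM, its log2 fold change was 1.65 and did not pass (adjusted p = 0.0553). The call against PHZ BM was lost without PHZ BM library 1 or 2 or without either spleen library, and also with a pseudocount of 0.1 FPKM, without the filter on low values, with limma voom, without the trend and robust options and with PHZ BM libraries 1 and 2 averaged. In PHZ SP against control BM, 0 genes of the list passed by limma or limma voom, where 0.758% and 0.652% of all genes did. Without adjustment, 4 and 5 were below 0.05, where 15.8% and 16.2% of all genes were. There, 1 passed without control library 3 or with at least 10 reads in every library.

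**Figure D4:**
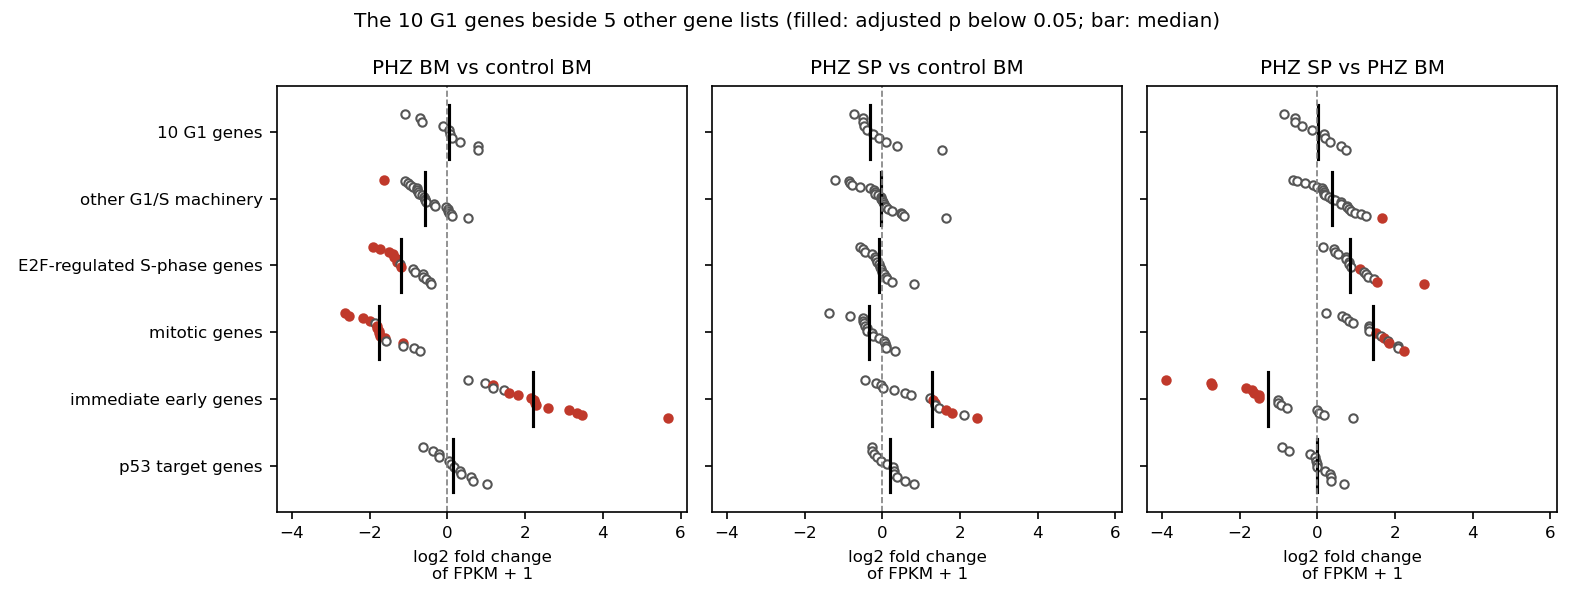
Log2 fold change of FPKM + 1 (horizontal axis) of each gene tested in the 10 G1 genes and 5 further lists, in the 3 comparisons, with the median of each list as a bar and genes past the threshold filled. In PHZ BM against control BM the medians run from -1.75 for mitotic genes through 0.05 for the 10 G1 genes to 2.19 for immediate early genes. The 10 G1 genes hold activators and inhibitors, whose opposite moves can cancel in their median.

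Immediate early genes, which growth factors and stress switch on within minutes, had the largest median of these lists in PHZ BM against control BM. In PHZ BM 12 of 16 tested were higher than in control BM, with a median of 2.19, led by Fos (151 ± 10.6 against 2.04 ± 0.923 FPKM, log2 fold change 5.69), Zfp36 (3.32), Junb (3.14) and Jun (3.45). Of the same list, 5 were higher in PHZ SP than in control BM (Jun 2.43, Zfp36 1.64, Junb 1.30 and Klf6 1.35 among them) and 8 were lower than in PHZ BM (Fos -3.89, Fosb -2.73, Junb -1.83 and Ier2 -1.49 among them). Leaving out libraries brought the 5 down to as few as 1, without spleen library 1, to 2 without spleen library 2, and to 3 without control library 2 or without PHZ BM library 1 or 2. The count of 5 also became 2 without the filter on low values, with only the 2 groups in the fit or without the trend and robust options, and 3 with PHZ BM libraries 1 and 2 averaged. The 8 became 4 without spleen library 1 and 1 without spleen library 2. The summed level of this list separated the 3 groups, at 202 to 262 FPKM in control BM, 1191 to 1298 FPKM in PHZ BM and 427 to 442 FPKM in PHZ SP. The group means of Cdkn1b run in the same order, and those of Ccnd1 and Ccnd2 in the opposite order. The part of this list in the values of Ccnd1, Ccnd2 and Cdkn1b was not tested.

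For the 3 members with the smallest p over the 3 groups, the genes with the most similar pattern were looked up among 5675 genes with a mean of at least 5 FPKM, by Pearson's r of log2(FPKM + 1) over the 8 libraries. Ccnd1 was most like Ndufa1 (r = 0.966), Glod4 (0.952) and Eloc (0.951). Ccnd2 was most like Snrpe (0.954), Atxn10 (0.948) and Erg28 (0.943). Cdkn1b was most like Madd (0.980), Tbc1d17 (0.974) and Renbp (0.971), and Tbc1d17 was at 4.06 ± 1.82 FPKM in control BM, 8.83 ± 1.22 FPKM in PHZ BM and 6.13 ± 0.568 FPKM in PHZ SP. The highest of 5675 such values over 8 points is a description, and the points share libraries and their scaling. None of the 9 genes belonged to the cell cycle lists.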

How the data were processed

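RNA-seq of sorted HSCs was analysed in 8 libraries, grouped by the titles of the samples. Per the authors' methods, cDNA was amplified with SMART-Seq2, Nextera XT libraries were sequenced and reads were aligned to mm10 with STAR, and DESeq2 was used for comparisons. The gene counter, annotation release and strand handling are not given in the sources used here. The authors deposited FPKM values, with Entrez gene IDs, in a separate table for each group, and tables of their own DESeq2 fold changes and p-values, which were not used.

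The 3 tables had been scaled separately: the control values fitted median-of-ratios factors from control and spleen libraries, the PHZ values such factors from both PHZ groups (largest gap 0.0%). All 110442 values above 0 came out as whole reads (tolerance 0.001 reads, 0.01 for Rn45s), and FPKM were rescaled with median-of-ratios factors over all 8 libraries. No molecular identifiers were used, so reads include PCR copies.

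Because the unit was FPKM, limma 3.58.1 (R 4.3.3; trend and robust options, all 8 libraries, no covariates) was run on log2(FPKM + 1), two-sided, with Benjamini-Hochberg adjustment over 11347 genes and a threshold of 0.05. This scale understates fold changes of low genes. The fit was also run on simulated data with known changes, and the outcome is not given here. All 10 members were named, and of each further list the genes past the threshold, at most 4 per direction and comparison with the smallest p. Members and lists were chosen with earlier results of these data known. Gene positions came from RefSeq, matched by Entrez gene ID. Python 3.11.15 drew the figures.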

Additional observations from a re-analysis of the deposited data

How the results depend on the processing

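Of the 540 log2 fold changes of the 10 genes under the 18 alternatives (30 values each), 516 kept their sign and their side of the threshold. In both comparisons with PHZ SP no alternative called any of the 10 genes. For PHZ BM against control BM the count of 0 became 1 with at least 10 reads in every library, 1 with limma voom and 1 with scaling by reads outside Rn45s, and 0 to 2 when a library was left out.

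Signs changed as follows, with no cause tested, and the ranges are over leaving out each library in turn. For PHZ SP against control BM, Cdk4 ranged from -0.076 (without control replicate 1) to 0.21 and was -0.013 without spleen replicate 1, Cdkn1c ranged from -1.79 to 0.32 and Cdkn2c from -1.03 to 0.53, both highest without spleen replicate 1. Against PHZ BM, the spleen value of Ccnd3 ranged from -0.24 to 0.012 (without PHZ BM replicate 3), that of Cdkn1c from -1.91 to 0.19 and that of Cdkn2c from -1.36 to 0.19, again highest without spleen replicate 1. For PHZ BM against control BM, Ccnd3 was -0.0085 with scaling by reads outside Rn45s and ranged from -0.11 (without PHZ BM replicate 3; -0.10 without control replicate 2) to 0.15. There, Cdk4 ranged from -0.28 to 0.021 (without PHZ BM replicate 1; 0.0076 without control replicate 3), Cdk6 from -0.12 (without PHZ BM replicate 3; -0.050 without control replicate 2) to 0.21, Cdkn1a from -0.11 (without PHZ BM replicate 3) to 1.25 and Cdkn1c from -0.17 (without control replicate 3; -0.059 without PHZ BM replicate 2) to 0.34.

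Over the 5 further lists together, 5 genes passed for PHZ SP against control BM, and 2 without the filter, 2 with only the 2 groups compared, 2 without trend and robust variance and 3 with PHZ BM replicates 1 and 2 averaged. For PHZ SP against PHZ BM, 16 passed, then 8, 10 and 7 without the filter, without trend and robust variance and with that average. For PHZ BM against control BM, 32 passed, and 21 with the average, an alternative chosen after seeing that these replicates were the most alike of any group (r = 0.976). Leaving out a library gave 1 to 6, 2 to 18 and 22 to 31. Where this left 1 spleen library, it was assumed to vary like the other groups. As shares of reads rather than FPKM, the mean share of Ccnd2 was 60.5%, 50.1% and 56.6% in control BM, PHZ BM and PHZ SP, and that of Ccnd1 2.98% and 4.77% in PHZ BM and PHZ SP. The order of the mean shares in PHZ BM turned, from 46.7% Ccnd2 and 49.3% Ccnd3 by FPKM to 50.1% and 46.9% by reads. Leaving out a library moved no mean share by more than its SD.

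Deviations from group means over all genes tested had correlations of -0.01 to 0.06 between libraries with the same replicate number. Between libraries with different numbers they were -0.06 to 0.07. Deviations within a group of 2 or 3 libraries cancel each other, so these values cannot tell whether libraries of different groups came from the same mice. The labels do not say, and the main fit used no pairing. With the replicate number as a block, 0 of the 10 genes passed in each comparison, and 6, 21 and 32 genes of the lists passed in PHZ SP against control BM, PHZ SP against PHZ BM and PHZ BM against control BM. Under the block the log2 fold change of Ccnd3 became 0.0046 in the first of these and that of Rb1 became -0.048 in the second. With 2 or 3 libraries a group, the lowest genes were known from 10 to 56 reads in some libraries, which limits what can be said of Cdkn1a and Cdkn1c.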
